A study of Mus musculus with 9 samples.

Results

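The genes described here are 3 Gadd45 genes, the DNA methyltransferases Dnmt1, Dnmt3a and Dnmt3b, and the methylcytosine dioxygenases Tet1, Tet2 and Tet3. They were read in mouse cortical neurons treated with bicuculline or KCl. The probes were found by RefSeq identifier: every array probe whose identifier maps to 1 of the 9 symbols was taken, and each probe was read separately. It gave 14 of the 41174 probes on the array, from 8 of the 9 genes, and no probe matched Tet1. All 14 passed the filter on dim probes, which asked for signal clearly over background throughout at least 1 of the groups and kept 27781 probes. The 8 genes are among 18327 named on the array.

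Neurons were taken from the cortex of C57BL/6 embryos on embryonic day 15 and kept for 12 days in culture. The control group was left untreated, the bicuculline group received 25 µM bicuculline for 6 h, and the KCl group received 50 mM KCl for 6 h. Bicuculline blocks GABA-A receptors and so lets the network fire without inhibition, whereas raised potassium depolarises every cell directly. Each group has 3 one-colour arrays, and the labels do not say whether these are separate cultures, so the p-values reflect only how far these arrays scatter, and that scatter may be technical.

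Dnmt3a and Dnmt3b place methyl groups on unmethylated CG sites, and Dnmt1 copies the marks onto the new strand after replication. Tet enzymes oxidise methylcytosine, and thymine DNA glycosylase with base excision repair can then restore an unmodified cytosine. Gadd45 proteins are small nuclear stress sensors that bind stress kinases and cell cycle regulators, and in neurons Gadd45b is known as an activity-induced gene linked to demethylation of promoters of growth factor genes.

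The stretches directly upstream of the Gadd45 genes are shown because these genes rose together under both treatments. Each holds the 250 bases before the start site of the RefSeq promoter table (GRCm38.p6), written 5′ to 3′ on the strand of the gene, with CG dinucleotides, the sites the methylation enzymes act on, in capitals. The Gadd45a stretch lies on the minus strand at chr6:67037408-67037657, Gadd45b on the plus strand at chr10:80929841-80930090 and Gadd45g on the plus strand at chr13:51846425-51846674.
Gadd45a: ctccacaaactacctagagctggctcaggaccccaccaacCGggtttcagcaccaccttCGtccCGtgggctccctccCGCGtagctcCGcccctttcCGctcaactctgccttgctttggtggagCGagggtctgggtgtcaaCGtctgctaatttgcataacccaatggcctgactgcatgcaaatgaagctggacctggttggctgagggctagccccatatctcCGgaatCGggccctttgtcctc
Gadd45b: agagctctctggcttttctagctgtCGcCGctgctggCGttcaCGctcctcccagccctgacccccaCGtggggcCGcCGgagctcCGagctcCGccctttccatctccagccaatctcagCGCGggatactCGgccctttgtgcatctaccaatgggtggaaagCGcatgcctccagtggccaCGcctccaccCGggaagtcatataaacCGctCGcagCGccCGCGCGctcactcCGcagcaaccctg
Gadd45g: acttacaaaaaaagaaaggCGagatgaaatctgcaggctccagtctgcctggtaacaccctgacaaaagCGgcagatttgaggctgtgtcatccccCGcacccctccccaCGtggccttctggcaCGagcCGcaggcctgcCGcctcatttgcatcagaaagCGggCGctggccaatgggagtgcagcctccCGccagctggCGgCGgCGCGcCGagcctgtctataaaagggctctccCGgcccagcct
They held 11, 22 and 16 CG dinucleotides, against a median of 6.0 over the 32851 promoters of the table. Fewer were held by 64.4%, 85.2% and 74.6% of these promoters. Promoters of the other members held from 2 (Dnmt1) to 51 (Tet2). Both strands were searched for the CRE motif TGACGTCA, its core TGACG, the AP-1 motif TGANTCA and the EGR motif GCGNGGGCG, where the core lies within the CRE. Of all promoters, 1.55% held the CRE, 17.8% the core, 6.75% AP-1 and 4.7% EGR. The Gadd45 windows held 1 match in all, an EGR match on the minus strand of Gadd45b, read CGCCCGCGC on the strand printed, from base 30 to base 22 before the start. Among the 13 promoters listed for the 9 genes, 0 held a CRE and 0 held AP-1. EGR letters also stood in a Dnmt3a, the Dnmt3b and the Tet1 promoter.

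Levels are given as processed signal, scaled so that the 75th percentile of every array is 1805, and replicates are listed in the order 1, 2, 3. Differences are log2 differences with limma's standard error, and a probe passed at an adjusted p under 0.05 over all 27781 probes. The 75th percentile before scaling was 1586 to 3087, between 65.0% and 75.9% of spots were well above background, and the median SD between replicates was 0.075 on the log2 scale. All 7 neuronal markers were well above background on all 9 arrays, Mog and Pecam1 on none. Both treatments moved much of the array: 39.9% of probes passed with bicuculline, 69.3% with KCl and 60.6% between KCl and bicuculline. The immediate early genes Fos and Fosb rose with both treatments, Fos by 2.76 and 4.47 and Fosb by 4.14 and 5.30. Arc, an activity-induced synaptic gene, fell by 0.65 with bicuculline and rose by 0.71 with KCl. Egr1, an immediate early transcription factor, fell by 0.59 and 0.63, Npas4 rose by 0.86 and 4.32, Nr4a1 by 0.66 and 1.86, Bdnf by 2.90 and 3.19, and Nptx2 by 2.13 and 2.25. The arrays lie on 3 slides: controls 1 and 2 share slide 1 with bicuculline 1 and 2, KCl 1 and 2 share slide 2 with control 3 and bicuculline 3, and KCl 3 stands alone on slide 3.

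With bicuculline, 7 of the 14 probes rose, 2 fell and 5 did not pass, where 39.9% of all probes passed (17.4% higher, 22.5% lower). With KCl, 10 rose, 2 fell and 2 did not pass, where 69.3% of all probes passed (36.3% higher, 32.9% lower). The median difference of the 14 probes was 0.22 with bicuculline, against -0.02 over all probes, and 1.05 with KCl, against 0.05 over all probes. Between treatments 9 probes were higher with KCl, 1 was lower and 4 did not pass, where 60.6% of all probes passed (34.6% higher, 26.0% lower). The arrays did not overlap for 10, 11 and 13 of the 14 probes, against 54.1%, 73.0% and 67.3% of all probes. Both comparisons with control use the same 3 control arrays. The counts and medians above include Tet3 probe 1 and Dnmt3b, which passed the filter on dim probes only through groups where they are high. Their KCl calls are therefore no support. Of the 12 member probes well above background on all 9 arrays, 9 rose and 1 fell with KCl. Over all 25483 such probes, 9389 rose and 8747 fell. Between treatments 8 of the 12 were higher and 0 lower with KCl, against 9284 and 6887 over all. Under normexp background correction with scaling to the 75th percentile, 3 member probes were called with bicuculline (Gadd45a and both of Gadd45b) and 7 with KCl (these, Gadd45g, Dnmt3a probe 1, Tet2 probe 2 and Tet3 probe 3). Between treatments 3 were called under it (Gadd45g, Dnmt3a probe 1 and Tet3 probe 3), and the other calls on member probes were not passed under that setting.

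**Figure D1:**
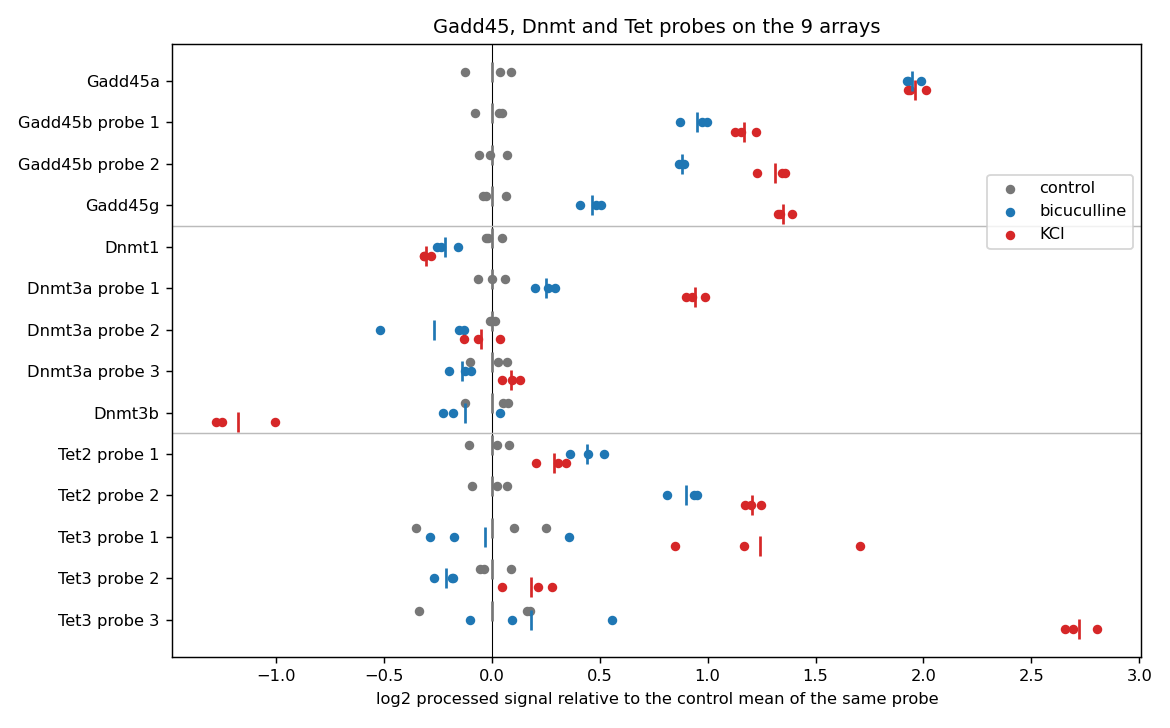
Each dot is 1 array, grey for control, blue for bicuculline and red for KCl, placed by its log2 processed signal relative to the control mean of the same probe; vertical ticks are group means of 3 arrays. All 4 Gadd45 probes lie to the right of control in both treatments, and Tet3 probe 3 stands at 2.72 on the KCl arrays only. Dnmt3b lies at -1.18 on the KCl arrays, a direction that turned under the normexp background correction with scaling to the 75th percentile.

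Gadd45 genes were higher in both treatments on all 4 probes. Gadd45a, a p53 target that halts the cell cycle after damage, read 501, 447 and 518 on the control arrays, 1856, 1939 and 1851 with bicuculline, and 1871, 1856 and 1969 with KCl. The 6 treated arrays formed 1 narrow band well above all controls, and the treatments overlapped. The rise was 3.86-fold with bicuculline (1.95 ± 0.06, adjusted p = 3.5e-07) and 3.89-fold with KCl (1.96 ± 0.06, adjusted p = 9.3e-08). Of all probes, 0.518% rose more than this with bicuculline and 1.69% with KCl. The difference between the treatments was 0.01, with a 95% interval from -0.12 to 0.15 (adjusted p = 0.86). Within slide 1 the bicuculline difference was 2.00, within slide 2 it was 1.84, and the KCl difference within slide 2 was 1.85. In cultures of mixed cells, more cells that carry a transcript and more transcript per cell cannot be told apart here.

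Gadd45b, the member best known as an activity-induced gene in neurons, was read by 2 probes. Probe 1 gave 1472, 1589 and 1605 in control, 2849, 3101 and 3057 with bicuculline, and 3458, 3393 and 3626 with KCl. Probe 2 gave 1658, 1813 and 1717, then 3154, 3199 and 3181, then 4049, 4389 and 4435. On both probes the 3 groups were ordered control, bicuculline, KCl without overlap. Bicuculline raised probe 1 by 1.93-fold (0.95 ± 0.05, adjusted p = 7.1e-06) and probe 2 by 1.84-fold (0.88 ± 0.05, adjusted p = 7.5e-06). KCl raised them by 2.25-fold (1.17 ± 0.05, adjusted p = 5.9e-07) and 2.48-fold (1.31 ± 0.05, adjusted p = 2.4e-07). KCl exceeded bicuculline by 0.22 ± 0.05 on probe 1 (adjusted p = 7.3e-03) and by 0.43 ± 0.05 on probe 2 (adjusted p = 1.5e-04). The probe 1 step did not pass with slide as a block (adjusted p = 0.11) or with median, spike-in or normexp and quantile scaling (adjusted p = 0.28, 0.44 and 0.18). Within slide 2 it was 0.16, while probe 2 gave 0.41 there.

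Gadd45g, a regulator of neural development that is also a stress gene, had the largest step between the treatments among the 4 Gadd45 probes. It read 21576, 22989 and 21350 in control, 31177, 29124 and 30688 with bicuculline, and 55484, 54974 and 57611 with KCl. The 3 groups stood clear of each other, with the KCl arrays far above the rest. The rise was 1.38-fold with bicuculline (0.47 ± 0.04, adjusted p = 1.2e-04) and 2.55-fold with KCl (1.35 ± 0.04, adjusted p = 1.4e-07). KCl exceeded bicuculline 1.85-fold (0.89 ± 0.04, adjusted p = 3.1e-06), and by 0.85 within slide 2. Of the 4 Gadd45 probes, 3 were higher with KCl than with bicuculline, where 34.6% of all probes were, and Gadd45a did not pass. Among these 3, 2 read Gadd45b, and both of its steps failed under normexp with the 75th percentile (adjusted p = 0.74 and 0.16). The Gadd45g step held in 22 of 22 alternative settings.

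**Figure D2:**
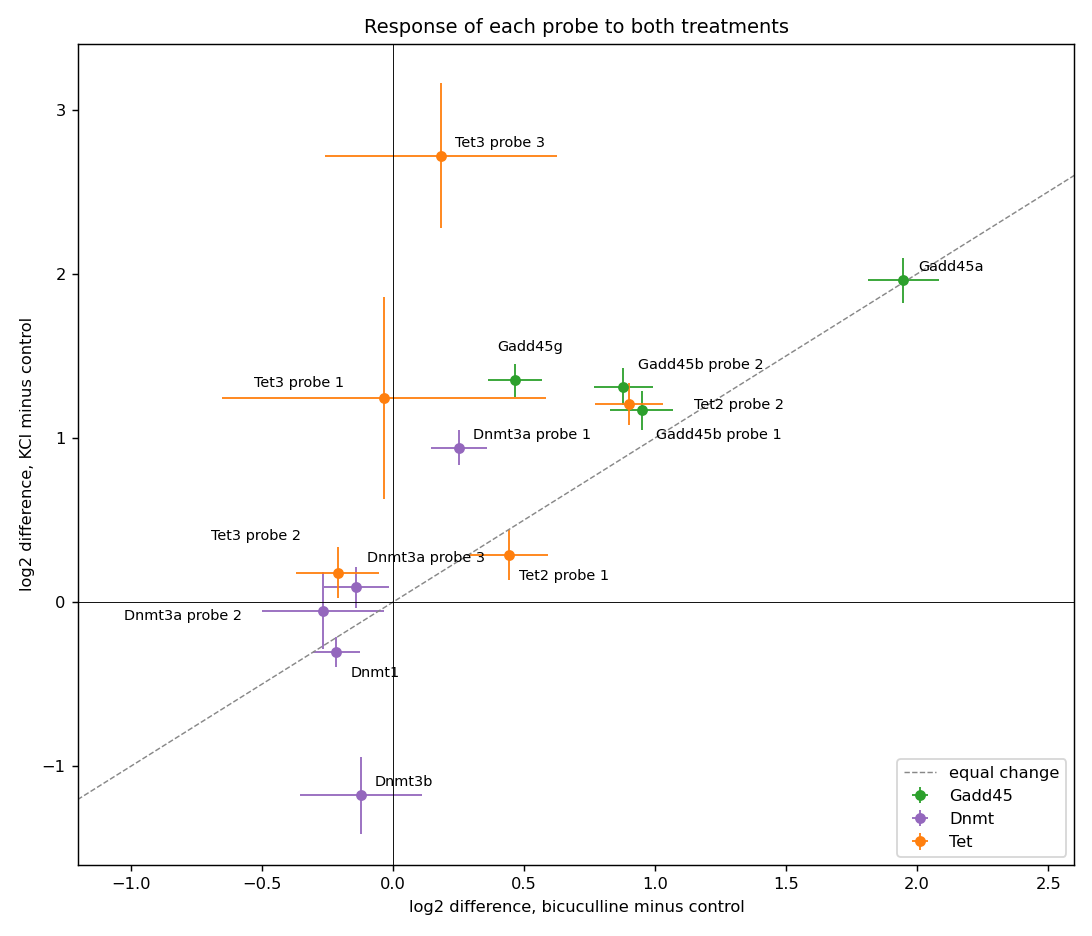
Each point is 1 probe, with the log2 difference from control under bicuculline on the x axis and under KCl on the y axis; bars are 95% intervals and the dashed line marks equal change. Gadd45a sits on the line at 1.95 and 1.96, Gadd45g and Dnmt3a probe 1 lie above it, and Tet3 probe 3 lies at 0.18 and 2.72. Both axes use the same control arrays, and the Dnmt3b fall with KCl turned under one background correction.

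Among the DNA methyltransferases, 1 of 5 probes rose and 1 fell with bicuculline, and 1 rose and 2 fell with KCl. The KCl fall of Dnmt3b is no support, since that probe passed the filter on dim probes only through the other groups. Dnmt1, the maintenance enzyme, read 1847, 1933 and 1835 in control, 1677, 1591 and 1568 with bicuculline, and 1506, 1538 and 1506 with KCl. All treated arrays lay below all controls, though by little. The fall was 1.16-fold with bicuculline (-0.22 ± 0.04, adjusted p = 3.1e-03) and 1.23-fold with KCl (-0.30 ± 0.04, adjusted p = 2.0e-04). Neither fall passed under normexp with the 75th percentile (-0.19, adjusted p = 0.33, and -0.23, adjusted p = 0.061). The step between treatments, -0.09 with a 95% interval from -0.18 to 0.00, did not pass (adjusted p = 0.083), though it did with median scaling (-0.21, adjusted p = 0.030). Within slides the bicuculline difference was -0.21 and -0.23, and the KCl difference -0.27.

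Dnmt3a, the main de novo enzyme of postmitotic neurons, was read by 3 probes that did not move together. Probes 1 and 2 carry the RefSeq identifier of the longer Dnmt3a1 transcript, and probe 3 that of Dnmt3a2, a shorter transcript from an internal promoter known to be induced by neuronal activity. The identifiers alone do not say which exons a probe reads. Probe 1 gave 395, 413 and 378 in control, 474, 454 and 484 with bicuculline, and 752, 737 and 785 with KCl. Its groups did not overlap, and it rose 1.19-fold with bicuculline (0.25 ± 0.05, adjusted p = 3.4e-03) and 1.92-fold with KCl (0.94 ± 0.05, adjusted p = 9.5e-07). KCl exceeded bicuculline on it by 0.69 ± 0.05 (adjusted p = 1.1e-05), and within slide 2 the KCl rise was 0.98. The bicuculline step was lost with the median as scale (adjusted p = 0.062) and with the spike-in probes as scale (adjusted p = 0.21).

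Probe 2 of Dnmt3a gave 2176, 2173 and 2206 in control, 1996, 1966 and 1525 with bicuculline, and 2093, 1999 and 2242 with KCl. One bicuculline array was well below the other two, and neither difference from control passed (-0.27 ± 0.10, adjusted p = 0.069, and -0.05 ± 0.10, adjusted p = 0.67). Without that array, bicuculline replicate 3, the bicuculline difference was -0.14 (adjusted p = 0.087), and without bicuculline replicate 1 it was -0.34 and passed (adjusted p = 0.049). Probe 3 gave 4968, 5588 and 5430, then 4632, 4883 and 4978, then 5679, 5504 and 5825. Bicuculline and control overlapped narrowly on it, and its differences from control, -0.14 ± 0.05 and 0.09 ± 0.05, did not pass (adjusted p = 0.071 and 0.16). Without control replicate 1 the bicuculline fall of probe 3 passed (-0.19, adjusted p = 0.023). KCl exceeded bicuculline by 0.23 ± 0.05 on probe 3 (adjusted p = 6.5e-03), which did not pass with slide as a block (adjusted p = 0.097) or with median or spike-in scaling (adjusted p = 0.23 and 0.36).

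The KCl difference of probe 1 exceeded that of probe 2 by 0.99 and that of probe 3 by 0.85, and in both cases the arrays did not overlap. The exact permutation test of such a difference between 3 and 3 arrays is two-sided and cannot go below p = 0.1, the value both gave (adjusted p = 0.1263 over 24 probe pair tests).

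Dnmt3b, the de novo enzyme of early development, was dim in these neurons. It read 84.1, 73.0 and 82.6 in control, 68.1, 70.5 and 81.8 with bicuculline, and 32.9, 39.7 and 33.5 with KCl. The KCl arrays lay below all others, and only 1 of them was well above background, against 3 of 3 in each other group. The probe thus passed the filter on dim probes only through the groups where it is high, so its KCl call is no support. Bicuculline did not pass (-0.12 ± 0.10, adjusted p = 0.38), and the KCl difference was -1.18 ± 0.10 (adjusted p = 2.0e-05), a size measured against arrays mostly at background. It was -1.19 within slide 2 and -0.58 under normexp with quantile normalization, but after normexp background correction and scaling to the 75th percentile the difference was 0.67 (adjusted p = 0.48).

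Of the 5 Tet probes, 5 were higher with KCl, while with bicuculline 2 rose, 1 fell and 2 did not pass. Tet3 probe 1 passed the filter on dim probes only through the KCl group, where it is high, so its KCl call is no support. Without it 4 of 4 were higher, where 36.3% of all probes were higher with KCl. Of these, the KCl calls of Tet2 probe 1 and Tet3 probe 2 held in only 16 of 21 and 8 of 22 alternative settings. Under scaling to the spike-in probes 1 of the 5, Tet3 probe 2, turned to a KCl difference of -0.0013. Tet2, which lacks the DNA-binding domain of the other Tet proteins, was read by 2 probes with 1 RefSeq identifier. Probe 1 gave 262, 231 and 253 in control, 355, 318 and 337 with bicuculline, and 315, 307 and 286 with KCl. Probe 2 gave 177, 198 and 192, then 332, 365 and 362, then 448, 425 and 434. On both probes every treated array exceeded every control, but the order of the treatments differed between the probes under this scaling.

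Bicuculline raised Tet2 probe 1 by 1.36-fold (0.44 ± 0.07, adjusted p = 1.2e-03) and probe 2 by 1.87-fold (0.90 ± 0.06, adjusted p = 1.4e-05). KCl raised probe 1 by 1.22-fold (0.29 ± 0.07, adjusted p = 5.0e-03) and probe 2 by 2.31-fold (1.21 ± 0.06, adjusted p = 7.4e-07). The KCl rise of probe 1 did not pass under 5 of 5 other scalings and background corrections, and that of probe 2 passed under all 5. Within slide 2 the KCl differences were 0.30 and 1.19. KCl exceeded bicuculline by 0.31 ± 0.06 on probe 2 (adjusted p = 2.1e-03), which was lost with median or spike-in scaling (adjusted p = 0.051 and 0.12). On probe 1 the step was -0.16 ± 0.07 (adjusted p = 0.071), and it passed with quantile, median and spike-in scaling (adjusted p = 0.0079, 0.012 and 0.045). Under normexp with scaling to the 75th percentile the probe 1 step turned to 0.42 (adjusted p = 0.42), and KCl then lay above bicuculline on both probes. The KCl difference of probe 1 minus that of probe 2 was -0.92, without overlap between arrays (two-sided exact permutation p = 0.1, the smallest possible).

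Tet3, which is abundant in brain, was read by 3 probes with 1 RefSeq identifier that differed in their response. Probe 2 gave 3233, 3571 and 3272 in control, 2950, 2789 and 2963 with bicuculline, and 4072, 3470 and 3890 with KCl. Its bicuculline arrays were below all controls, whereas 1 KCl array lay among the controls. Bicuculline lowered it 1.16-fold (-0.21 ± 0.07, adjusted p = 0.040) and KCl raised it 1.13-fold (0.18 ± 0.07, adjusted p = 0.044), and each call held in 8 of 22 alternative settings. KCl exceeded bicuculline on it by 0.39 ± 0.07 (adjusted p = 1.6e-03), which held in 21 of 22.

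Probe 3 of Tet3 gave 48.4, 68.4 and 69.1 in control, 57.0, 65.3 and 89.8 with bicuculline, and 385, 428 and 396 with KCl. Control and bicuculline overlapped and the KCl arrays stood far above both. It rose 6.58-fold with KCl (2.72 ± 0.19, adjusted p = 6.6e-06), exceeded by 0.724% of probes, and the bicuculline difference of 0.18 ± 0.19 did not pass (adjusted p = 0.50). KCl exceeded bicuculline 5.80-fold (2.54 ± 0.19, adjusted p = 1.9e-05), which 0.112% of probes exceeded, and the KCl rise was 2.55 within slide 2. The probe was well above background on all 9 arrays, but its control and bicuculline signals were about as low as those of Dnmt3b. The KCl rise ranged from 1.54 to 2.81 over 21 alternative settings, so its size depends on the processing.

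Probe 1 of Tet3 was near background, at 25.2, 34.4 and 38.1 in control, 28.5, 26.3 and 41.2 with bicuculline, and 57.9, 104.8 and 72.2 with KCl. It was well above background on 2 control, 1 bicuculline and 3 KCl arrays. The KCl arrays again lay above the others, with a fitted difference of 1.24 ± 0.27 (adjusted p = 3.6e-03) that was 0.29 under normexp with quantile normalization, and bicuculline did not pass (-0.03 ± 0.27, adjusted p = 0.94). The KCl difference of probe 2 minus that of probe 3 was -2.54, and that of probe 1 minus that of probe 3 was -1.48, without overlap (exact permutation p = 0.1 each, the smallest possible). Between bicuculline and control, probes 2 and 3 overlapped in their difference (exact permutation p = 0.2).

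Some other genes had nearly the same profile as a member over the 9 arrays, by the root mean square difference of log2 values after each was set to its control mean, among 14024 other named genes. Nearest to Gadd45a were Scg2, Klhl1 and Rasgrf1, at 0.10, 0.14 and 0.16. Scg2, which encodes secretogranin, differed from control by 1.88 with bicuculline and 2.10 with KCl. Gadd45b was matched by Cdkn1a, Hspa1b and Kif18a at 0.036, 0.047 and 0.051, and Gadd45g by Wdr54, Rab11fip4 and Wdr33 at 0.049, 0.052 and 0.052. Tet2 had Nap1l5, Ppp1r12a and Kif18a at 0.059, 0.060 and 0.061. Gadd45a had more distant neighbours than the other 3 genes, and Kif18a, a mitotic kinesin, was near both Gadd45b and Tet2. Each gene was read here by its brightest probe, which is probe 2 for both Gadd45b and Tet2. The Tet2 neighbours are therefore those of probe 2, and Tet2 probe 1, with differences of 0.44 and 0.29 from control, was not compared.

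Other genes of the same pathways were counted by their brightest probe, beside 42.3% of 14063 genes passing with bicuculline (16.7% higher, 25.7% lower) and 70.8% with KCl (35.3% higher, 35.5% lower). Uhrf1, Tdg, Ung, Apex1, Ercc5 and Trp53 were named after their values were seen, the others by rule. Under normexp with the 75th percentile the bicuculline differences of Zbtb4, Mat2b, Cxxc4 and Mapk14, and of Nr4a1 and Egr1 above, did not pass. The shares of genes given here belong to the main setting. Under normexp with the 75th percentile, 679 of 27781 probes were higher and 350 lower with bicuculline. With KCl, 3312 were higher and 2800 lower under it.

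Methyl-CpG readers bind methylated DNA and recruit repressors. Of 10, 2 rose, 2 fell and 6 did not pass with bicuculline, and 2 rose, 5 fell and 3 did not pass with KCl. Under normexp with the 75th percentile 1 rose and 0 fell with bicuculline, and 1 rose and 1 fell with KCl. Mbd2 was higher in both, by 0.45 ± 0.05 (adjusted p = 3.2e-04) and 0.73 ± 0.05 (adjusted p = 7.0e-06). Zbtb4 fell by 0.24 with bicuculline. Mbd5 gave a fitted difference of -0.88 ± 0.16 with KCl (adjusted p = 1.6e-03), where 0 of 3 KCl arrays were well above background. Against the lowest signal well above background, the fall was at least 1.28-fold in the main setting only. Mbd5 passed the filter on dim probes only through the control group, where it is high, so its call among the 5 falls is no support. Its direction turned under normexp correction with scaling to the 75th percentile.

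Among 13 partners of the methyltransferases, which recruit them or supply the methyl donor, 3 rose and 3 fell with bicuculline, and 4 rose and 6 fell with KCl. These counts moved with the scaling: with KCl, 0 rose and 7 fell under median and spike-in scaling, 1 and 7 under quantile normalization, and 0 and 1 under normexp with the 75th percentile. With bicuculline, 1 rose and 2 fell under median scaling, 0 and 2 under spike-in scaling, and 0 and 0 under normexp with the 75th percentile. Pcna, the replication clamp, rose by 0.34 with bicuculline, which was lost under spike-in scaling and under normexp with the 75th percentile, and Mat2b, a subunit of the enzyme that makes S-adenosylmethionine, fell by 0.43. Uhrf1, which brings Dnmt1 to half-methylated sites, fell by 0.31 and 0.42. Hells, a chromatin remodeller, fell by 0.71 with KCl, a direction that turned under the same normexp correction. Usp7 rose by 0.20 with KCl, which passed in 0 of 5 other scalings and background corrections.

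Of 20 genes for oxidative demethylation and base excision repair, 16 were tested. With bicuculline 0 rose, 7 fell and 9 did not pass, and with KCl 1 rose, 8 fell and 7 did not pass. Under normexp with the 75th percentile 0 rose and 0 fell with bicuculline, and 0 rose and 3 fell with KCl; under spike-in scaling 0 rose and 4 fell with bicuculline. Cxxc4, whose protein lowers Tet2 protein, fell by 0.92 ± 0.04 (adjusted p = 2.7e-06) and 1.59 ± 0.04 (adjusted p = 5.3e-08). Ung, the uracil glycosylase, fell by 0.45 and 1.23, and Apex1, the endonuclease that cuts abasic sites, by 0.50 and 0.83. Tdg, the glycosylase that follows the Tet enzymes, gave -0.09 (adjusted p = 0.16) and -0.03 (adjusted p = 0.62). Cxxc5 rose by 0.15 with KCl on the brighter of its 2 tested probes, while the other gave -0.05. The call held in 1 of 5 other scalings and background corrections, and its direction turned with the median or the spike-in probes as scale.

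Of 16 Gadd45 partners in stress kinase, cell cycle and repair pathways, 4 rose and 6 fell with bicuculline, and 5 rose and 10 fell with KCl. Under normexp with the 75th percentile 2 rose and 0 fell with bicuculline, and 3 rose and 4 fell with KCl. The balance with bicuculline also turned over all probes, from 4834 higher and 6261 lower to 679 and 350 under that setting. Cdkn1a, which encodes the cell cycle inhibitor p21, rose by 0.88 ± 0.04 (adjusted p = 3.0e-06) and 1.29 ± 0.04 (adjusted p = 1.1e-07). Ercc5, the repair nuclease that acts with Gadd45a, rose by 0.66 and 0.68. Mapk14, the p38 kinase, fell by 0.39 with bicuculline, and Ing1 by 0.73 with KCl. Trp53 gave 0.33 with bicuculline (adjusted p = 0.081) and rose by 0.74 with KCl. The medians of the 4 lists were -0.05, -0.05, -0.12 and -0.05 with bicuculline, against -0.03 over all genes, and -0.12, -0.12, -0.11 and -0.19 with KCl, against 0.02.

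**Figure D3:**
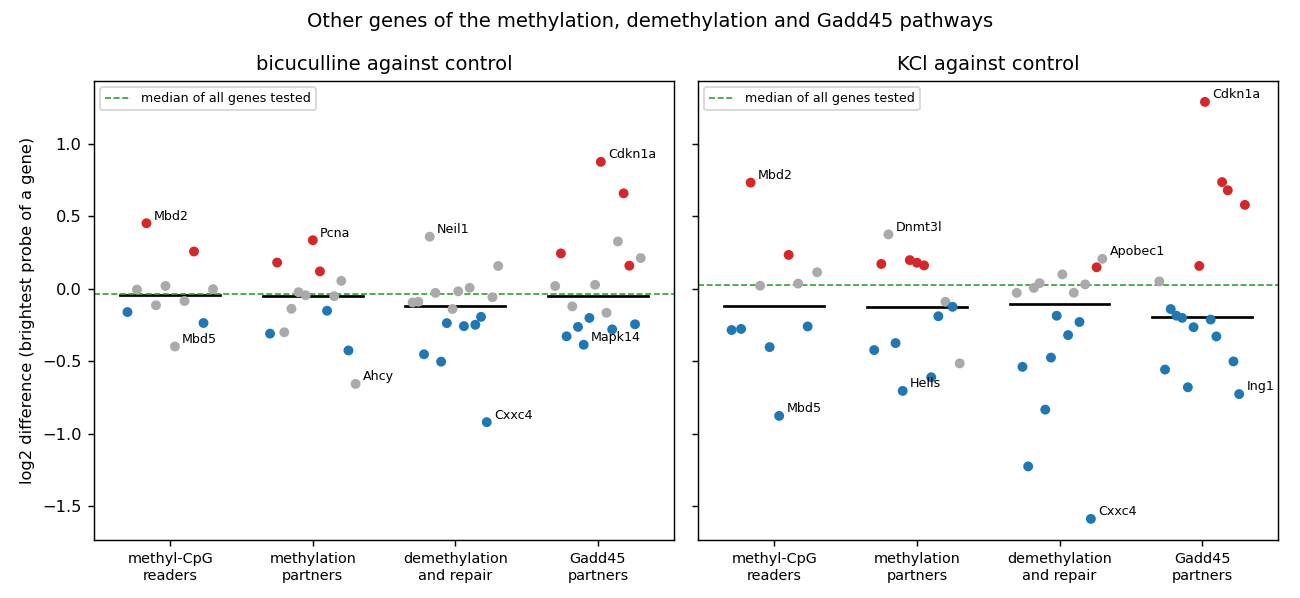
Each dot is 1 gene by its brightest probe, red where higher, blue where lower and grey where the test was not passed, with the log2 difference from control on the y axis and the gene list on the x axis. Black lines are list medians and the dashed line is the median of all 14063 genes. Cdkn1a is the highest gene in both panels and Cxxc4 the lowest; the directions of Mbd5, Hells and Cxxc5 with KCl turned under some scalings or background corrections.

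Marker levels of other cell types also differed between the groups. Summed over each marker list, vascular markers read 23750 to 26090 in control, 22440 to 26040 with bicuculline and 52480 to 60150 with KCl, with 2 of 4 tested markers higher and 1 lower in KCl. Most of that sum is Tagln, a smooth muscle gene, which read 20750 to 23250, 19880 to 23440 and 49130 to 56690; without it the sum read 2840 to 3005, 2527 to 2601 and 3347 to 3459. Astrocyte markers read 107800 to 120500, 107600 to 115100 and 132000 to 139900, with 4 of 6 higher and 1 lower, and oligodendrocyte markers 15110 to 15730, 14340 to 15040 and 18830 to 19050, with 4 of 5 higher and 1 lower. Microglial markers read 5596 to 5846, 4475 to 6564 and 6141 to 9511, with 2 of 5 higher in KCl. Markers of cycling cells, which include the Gadd45 partners Cdk1 and Ccnb1, read 12740 to 14240 in control, 12050 to 12420 with bicuculline and 11200 to 11970 with KCl, with 4 of 6 lower in KCl. Neuronal markers read 139400 to 146500, 138000 to 139900 and 140700 to 147300, with 4 of 7 higher and 1 lower in KCl. The lower marker was Tubb3, which read 45620 to 49630, 42360 to 42850 and 32690 to 33890. Without it the neuronal sum read 93800 to 96860, 95380 to 97050 and 106800 to 114600. With bicuculline, 0 of 5 microglial, 2 of 6 astrocyte, 3 of 5 oligodendrocyte, 2 of 4 vascular, 3 of 7 neuronal and 3 of 6 cycling markers passed. The counts moved with the scaling: with KCl, 2 astrocyte markers were higher and 2 lower under median and spike-in scaling, and 0 and 0 under normexp with the 75th percentile. Neuronal markers gave 1 higher and 1 lower under median scaling, and 0 and 1 under spike-in scaling and under normexp with the 75th percentile. Of the microglial markers 0 passed under median and spike-in scaling, and of the cycling markers 0 passed under normexp with the 75th percentile. The part of these cells in the member differences was not tested.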

How the data were processed

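Labelled RNA of 9 samples was hybridised to one-colour Agilent mouse arrays, and the values used are processed signal intensity as the authors deposited it. Per the file headers, Agilent Feature Extraction 10.7.3.1 subtracted the background and removed spatial trends. Per the submitters' processing notes, the version was 10.5.1.1. The deposited series values equal the processed signal on all 45018 features. No scaling between arrays had been applied. Here log2 intensity was set relative to each array's 75th percentile, without spots flagged as outliers by the scanner software. Probes were named through RefSeq identifiers in a GRCm38.p6 table (26888 of 41174). Probes clearly over background throughout at least 1 group, with at least 2 measured arrays per group, entered limma 3.58.1 (R 4.3.3) with group as the only term (6 residual degrees of freedom, prior 1.71). P-values are two-sided and Benjamini-Hochberg adjusted over 27781 probes. The number of arrays limits the precision.

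The members and lists were chosen with earlier results of these data known. Named besides the members are, from each list, the gene with the largest rise and the largest fall among those passing in each comparison with control, the activity panel, and the 3 nearest genes of each member called in both comparisons and changed by at least 0.5 in 1 of them. Alternatives were other scalings, background corrections and filters, slide or replicate number as a block, fits on 6 arrays, and each array left out. Values of 1 listed gene are not reported here.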

Additional observations from a re-analysis of the deposited data

How the results depend on the processing

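Of the 31 called member differences, 13 kept direction and call in every alternative, among them all Gadd45a and Gadd45b differences from control and the KCl rise of Tet3 probe 3. Over 900 alternative values, 818 kept direction and side of the threshold, 56 lost the call, 10 gained it and 3 called values changed sign. Another 13 values that were not called changed sign and stayed uncalled. Normexp background correction with scaling to the 75th percentile left 3 member probes called with bicuculline, 7 with KCl and 3 between treatments (main 9, 12 and 10), and 1029, 6112 and 3063 of all probes (main 11095, 19246 and 16844). Under it Dnmt3b turned to 0.67 with KCl and 0.78 against bicuculline, and the cause was not tested. Scaling to spike-in probes left 6195 and 11135 of all probes with bicuculline and between treatments, and turned Tet3 probe 2 to -0.0013 with KCl. Reading each gene by its brightest probe leaves fewer features, 14063 genes and 8 members, and gave 6242, 10100 and 9123 calls, with 7 members called for KCl and 6 between treatments. Leaving out 1 array gave 8 to 9, 11 to 12 and 10 to 10 member calls, and 9171 to 11164, 17542 to 19080 and 15013 to 16661 calls overall. The share of higher calls among KCl calls was 52.5%, and 42.1%, 35.5% and 32.9% after quantile normalization, median and spike-in scaling, which shifted the median of all probes by -0.10, -0.16 and -0.18. Between treatments it was 57.1%, and 44.6%, 37.0% and 36.8%, and with bicuculline 43.6%, and 66.0% under normexp with the 75th percentile.

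With slide as a block, 8, 11 and 8 member probes and 10883, 16381 and 12976 of all probes were called. Whether replicate numbers pair the arrays cannot be told, because number and slide are mixed. Same-numbered control and bicuculline arrays, which also share a slide, correlated at 0.345, 0.207 and 0.669. Other same-numbered pairs, which lie on different slides, fell as low as -0.485. With replicate number as a block, 8, 11 and 11 member probes and 10627, 18998 and 16593 of all probes were called. Dim probes (Dnmt3b, Tet3 probe 1, and Tet3 probe 3 in control and bicuculline) are limited by signal over background.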

Other observations

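The letters ATGCAAAT, the octamer bound by POU factors, were searched after the 3 upstream sequences had been read, so the choice of this motif rests on them. The Gadd45a stretch held it 2 times, as ATTTGCAT from base 97 to base 90 before the start and as ATGCAAAT from base 70 to base 63. The Gadd45g stretch held it once, as ATTTGCAT from base 103 to base 96, and the Gadd45b stretch and the other members' promoters did not. Of 32851 promoters, 1.6% held it on either strand. A match describes these letters, and binding was not measured.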
